A study of Mus musculus with 11 samples.

Results

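Fatty acid uptake, storage and oxidation were followed through 35 genes in mouse macrophages without and with polarising cytokines. The genes are a named pathway list, drawn up with earlier results of these data known but with no threshold on measured values, and all 35 were measured among 18193 genes. Each gene was read from 1 probe set, the one with the highest mean over all 11 arrays among probe sets with a single gene symbol. Values are log2 units, so that a difference of 1 is 2-fold.

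All cells came from the bone marrow of Rag1-/- C57BL/6 mice aged 7 weeks, which lack mature B and T cells, and the M0 cells carry this deletion too. Marrow was grown for 7 days and cells stained for F4/80, a macrophage surface protein, were sorted. M0 cells had no cytokines (5 arrays), M1 cells had interferon-gamma (IFN-g) and lipopolysaccharide (LPS), the latter in the last 24 h (3 arrays), and M2a cells had IL-4 and IL-13 (3 arrays). M0 was the common standard of the study, and RNA was read on Affymetrix mouse arrays. Nothing in the labels says that replicates were separate mice or cultures, so the p-values measure only how these samples vary, which may be technical.

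Macrophages take up fatty acids through surface receptors and transporters, or free them from lipoproteins with lipases, and store them as triglyceride in lipid droplets. For oxidation a fatty acid is joined to coenzyme A, carried into the mitochondrion by the carnitine shuttle and shortened in repeated cycles of beta-oxidation, whose electrons pass to the respiratory chain through the electron transfer flavoprotein. The PPAR nuclear receptors and the coactivator PGC-1beta drive many of these genes, and IL-4 is known to raise fatty acid oxidation in macrophages.

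Some features of the arrays bear on the groups. The 8 macrophage markers lay above the median gene in every group. Their list mean was 10.63 to 11.37 in the M0 arrays, 11.86 to 11.87 in M1 and 9.99 to 10.33 in M2a. Against M0, 4 of them were called higher and 1 lower in M1, and 1 was called higher and 5 lower in M2a. The 12 neutrophil-lineage markers were also all above the median gene in M0, with a list mean of 11.13 to 12.42, against 7.03 to 7.17 in M1 and 5.37 to 5.46 in M2a; none was called higher, 11 were called lower in M1 and 12 in M2a. Of 8 eosinophil, basophil and mast cell markers, 7 were lower and 1 higher in M1 and 6 lower in M2a, with list means of 6.90 to 8.70 in M0, 4.26 to 4.36 in M1 and 4.69 to 4.78 in M2a. Of 7 stroma markers, 2 were lower in M1 and 6 in M2a, with list means of 5.76 to 7.01, 5.47 to 5.49 and 4.20 to 4.42. Of 4 lymphoid markers, all below the median gene, 2 were higher in M1 and 1 in M2a. Of 4 marrow adipocyte markers, 3 lay below the median gene in each group, and the list mean was 3.95 to 4.51 over all arrays. Xist, the RNA that coats the inactive X, lay at 11.74 to 12.01 in M0, 5.37 to 5.98 in M1, 5.58 and 5.81 in M2a arrays 1 and 2, and 11 in M2a array 3. Y-linked Eif2s3y lay at 2.36 to 3.02 in M0 and at 8.48 to 8.96 in M1 and M2a. The labels give no sex, and in the comparisons with M0 sex and cytokine state cannot be told apart. Hybridisation controls averaged 10.61 to 11.70 in the M0 arrays, above the 9.64 to 9.96 of the others, and spiked poly-A controls averaged 8.86 ± 0.44 (SD, n = 5) in M0, 5.32 ± 0.05 (n = 3) in M1 and 6.02 ± 0.09 (n = 3) in M2a. As a sign of RNA integrity, actin controls at the 5' end less those at the 3' end averaged -0.61 ± 0.47 (M0), 0.15 ± 0.02 (M1) and -0.57 ± 0.06 (M2a), and for Gapdh the values were -0.37 ± 0.60, 0.57 ± 0.03 and -0.30 ± 0.04, so M1 stood apart on both. What other cells, sex or array quality contribute to the differences below was not tested. In bulk samples, fewer cells of a type and less RNA per cell cannot be told apart.

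The M0 arrays were the variable group for these genes. The SD over M0 arrays was above that of M1 and of M2a for all 35 genes, with a median SD of 0.32 in M0, 0.05 in M1 and 0.08 in M2a. Of the 35 genes, 16 were lowest in M0 array 1 and 15 in M0 array 4, and 20 were highest in M0 array 5. The shares of all genes with these traits were not counted, so these counts are not results particular to the 35. In array 1, 11 of the 12 neutrophil-lineage markers were at their M0 maximum. On no probe set did the mean of M0 arrays 1 to 3 differ by more than 8.3e-05 from that of arrays 4 and 5, so that arrays 4 and 5 deviate equally and oppositely from the M0 mean and the group holds less information than 5 separate arrays would. The p-values treat them as independent.

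**Figure D1:**
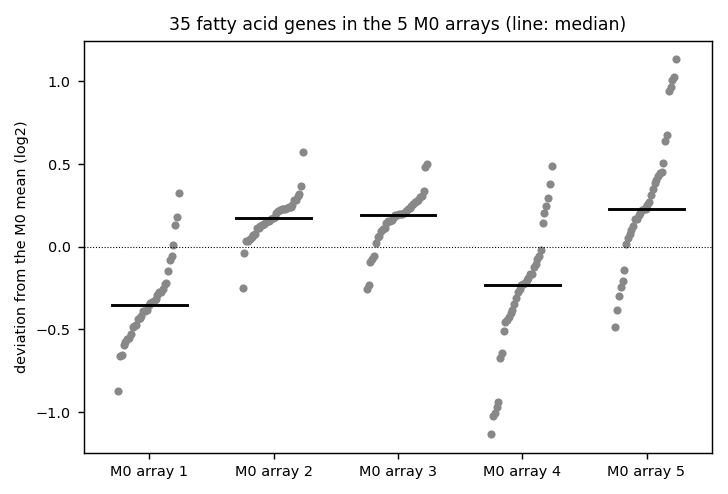
Deviation of each of the 35 genes from its M0 mean (log2, vertical axis) in the 5 M0 arrays (horizontal axis), with the median as a line. The medians were -0.36 and -0.23 in arrays 1 and 4 and 0.18 to 0.23 in the other 3.

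With IFN-g and LPS, 10 of the 35 genes fell and 7 rose, and with IL-4 and IL-13, 11 rose and 3 fell. A gene was called changed at a limma adjusted p of 0.05 over all 18193 genes. In M1 against M0, 22.1% of all genes were called higher and 17.6% lower, against 20% and 28.6% of the 35. In M2a against M0, 18.6% of all genes were called higher and 13.3% lower, against 31.4% and 8.57% of the 35. Changes that were called and at least 2-fold numbered 4 higher and 6 lower in M1, where the share over all genes was 6.27% and 6.41%, and 8 higher and 0 lower in M2a, where it was 4.41% and 4.95%. The share of the 35 that was called higher in M1 was near that of all genes. Of the 35, 1 lay below the median gene in M0, 2 in M1 and 0 in M2a, while the shares over all genes include the dim ones. These shares were thus not matched for brightness. The median difference of the 35 was -0.03 in M1 and 0.24 in M2a, beside 0.06 and 0.07 over all genes. The same M0 arrays enter both comparisons.

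Those counts moved with the M0 arrays and the scaling. Without M0 arrays 1 and 4, 7 genes rose and 17 fell in M1, and 11 rose and 9 fell in M2a. After quantile normalisation, 6 rose and 15 fell in M1. With the hybridisation controls as a covariate, 3 rose and 25 fell in M1, and 4 rose and 17 fell in M2a. The slope of this covariate is set within groups, mainly by the M0 arrays, where the controls vary most. Since the controls do not overlap between M0 and the other groups, the adjusted differences carry that slope beyond the M0 range. This holds for every value with this covariate, called or not. With it many M1 falls were larger, at -4.90 for Pparg, -2.04 for Fabp4, -2.0 for Acsl3, -1.87 for Acaa2, -1.43 for Ech1 and -1.19 for Lipa, and Fabp5 in M2a was -0.82. Leaving out any 1 array gave 6 to 8 higher and 8 to 12 lower in M1, and 9 to 15 higher and 1 to 4 lower in M2a. The M2a falls were 1 without M0 array 2 or without M2a array 1, 2 or 3.

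**Figure D2:**
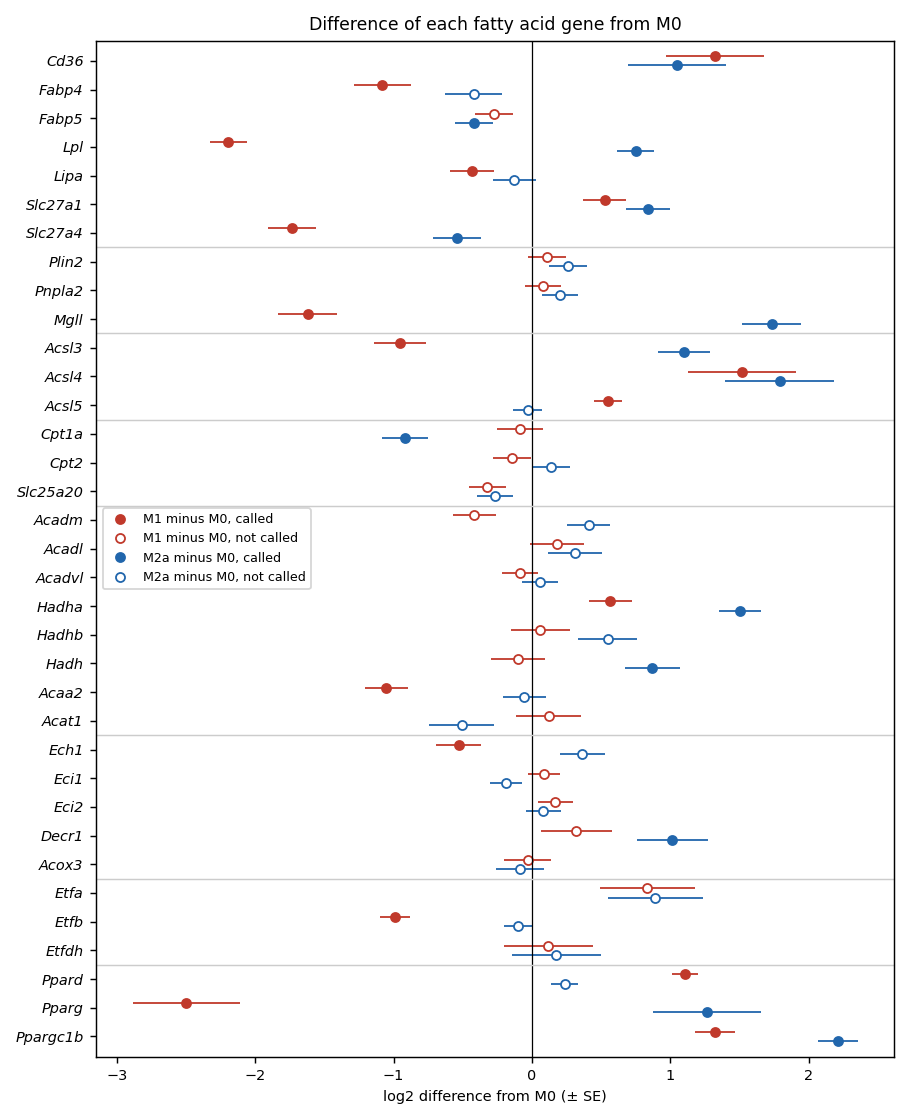
Difference of each gene from M0 in M1 (red) and M2a (blue), with the SE of the limma fit; filled points were called, and grey lines part the groups of function from uptake (top) to regulators (bottom). Lpl, Mgll, Acsl3 and Pparg lie left of 0 in M1 and right of 0 in M2a.

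Among the 3 regulators, Pparg fell in M1 and rose in M2a, Ppard rose in M1, and Ppargc1b rose in both. Pparg encodes PPAR-gamma, the fatty acid-activated nuclear receptor that drives lipid uptake and storage genes. It stood at 6.22, 7.66, 7.39, 6.15 and 8.03 in M0 arrays 1 to 5, at 4.76, 4.36 and 4.66 in M1 and at 8.20, 8.28 and 8.59 in M2a. No M1 array reached the lowest M0 array, and every M2a array lay above the highest, M0 array 5, by a small margin. The difference was -2.50 ± 0.39 (SE; 5.65-fold lower, limma adjusted p = 0.00036) in M1 and 1.27 ± 0.39 (2.40-fold higher, limma adjusted p = 0.027) in M2a. The M1 mean of Pparg, 4.60, lay below that of the median gene, 5.94. The M2a call was lost without M2a array 1, 2 or 3 (limma adjusted p = 0.063, 0.071 and 0.10), with only the arrays of the 2 groups (0.060) and with arrays 4 and 5 as the only M0 arrays (0.095). Without M0 arrays 1 and 4 the M2a difference was 0.66, still called, and with the hybridisation covariate it was -0.89 and called lower (limma adjusted p = 0.0019).

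Ppard encodes PPAR-delta, a related receptor of oxidative genes. It lay at 5.50, 5.86, 5.82, 5.67 and 5.78 in M0, at 6.87, 6.81 and 6.82 in M1 and at 5.98, 6.02 and 5.89 in M2a. The M1 arrays stood clear of all the others, and the difference from M0 was 1.11 ± 0.10 (SE; limma adjusted p = 3.7e-06). With the mean of the gene's probe sets the M1 rise was 0.61. Ppargc1b encodes PGC-1beta, a coactivator of mitochondrial and fatty acid oxidation genes. Its levels were 6.52, 6.94, 6.98, 7.11 and 6.52 in M0, 8.04, 8.22 and 8.16 in M1 and 9.04, 9.12 and 8.92 in M2a. The 3 groups formed 3 separate steps with no overlap. The rise over M0 was 1.33 ± 0.14 (SE; limma adjusted p = 2.2e-05) in M1 and 2.21 ± 0.14 (4.64-fold, limma adjusted p = 6.5e-07) in M2a, and both calls held in all 26 alternatives. Here and below, many of these alternatives could not move the size of a difference, as listed further on.

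Since Pparg moved furthest between the states, the RefSeq windows before its 3 listed starts (build GRCm38.p6, plus strand) are shown, with the nuclear receptor half-site AGGTCA, searched on both strands, in capitals.
Pparg, chr6:115360894-115361143: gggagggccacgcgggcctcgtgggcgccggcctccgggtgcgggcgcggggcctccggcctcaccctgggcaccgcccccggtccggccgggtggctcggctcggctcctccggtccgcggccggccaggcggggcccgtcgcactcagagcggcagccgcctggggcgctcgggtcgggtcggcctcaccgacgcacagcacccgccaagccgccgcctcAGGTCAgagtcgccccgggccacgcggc
Pparg, chr6:115362099-115362348: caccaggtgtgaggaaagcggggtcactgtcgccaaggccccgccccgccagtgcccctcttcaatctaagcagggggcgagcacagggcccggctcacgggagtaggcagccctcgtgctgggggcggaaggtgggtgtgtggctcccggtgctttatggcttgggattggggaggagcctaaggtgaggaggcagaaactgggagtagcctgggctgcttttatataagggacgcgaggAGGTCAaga
Pparg, chr6:115421816-115422065: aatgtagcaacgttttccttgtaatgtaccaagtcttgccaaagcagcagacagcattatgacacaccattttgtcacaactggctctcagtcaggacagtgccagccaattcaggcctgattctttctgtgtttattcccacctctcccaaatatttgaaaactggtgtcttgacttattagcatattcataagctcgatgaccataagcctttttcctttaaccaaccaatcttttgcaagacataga
The half-site lay at -28 to -23 from the first start and at -9 to -4 from the second, and these letters are not in the third window. The windows differ in base composition, with 82.4%, 63.6% and 40.8% G and C.

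Of the 35 genes, 28 have a window of 250 bases before to 50 after a start in the RefSeq table, 33 windows in all. AGGTCA was in 7 of these 33, in Acadm, Acadvl, Cd36, Cpt1a, Plin2 and Pparg, beside 16.3% of the 32851 windows of all genes. Other patterns were searched on both strands as well. A pair of such half-sites in the same direction, 1 base apart with up to 2 mismatches, as PPAR and RXR bind, was in 4 windows (Cd36, Etfa, Plin2 and Slc25a20), beside 3.86% of all windows, and can overlap the single half-site. TTC and GAA, the outer letters of STAT sites, were 3 bases apart in 3 windows (Cpt2, Hadha and Hadhb), beside 8.30%, and 4 bases apart in 1 window (Cd36), beside 6.95%. The windows of Hadha and Hadhb overlap, and their matches are the same bases, counted once for each gene.

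In uptake and release, Lpl and Slc27a4 fell most in M1 and Cd36 rose, and Slc27a1, Cd36 and Lpl rose in M2a. Of the 7 genes of this group, 4 fell and 2 rose in M1, and 3 rose and 2 fell in M2a. The shares over all genes were 17.6% lower and 22.1% higher in M1, and 18.6% higher and 13.3% lower in M2a. Lpl encodes lipoprotein lipase, which frees fatty acids from lipoprotein triglyceride. It was among the brightest of the 35, at 12.60, 13.07, 13.12, 12.71 and 13.15 in M0, at 10.83, 10.60 and 10.78 in M1 and at 13.72, 13.68 and 13.63 in M2a. The groups did not overlap, with M1 lowest and M2a highest. The fall in M1 was -2.19 ± 0.14 (SE; 4.57-fold, limma adjusted p = 2.4e-07) and held in all 26 alternatives. The rise in M2a was 0.75 ± 0.14 (limma adjusted p = 0.0015), and its call was lost only with the hybridisation covariate (0.14).

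Cd36 encodes a scavenger receptor that takes up oxidised lipoproteins and long-chain fatty acids. Its levels were 11.01, 11.83, 11.93, 10.58 and 12.60 in M0, 12.77, 12.97 and 13 in M1 and 12.65, 12.65 and 12.62 in M2a. M0 spread over 2 units, and M0 array 5 lay within 0.05 of the M2a arrays. The rise was 1.32 ± 0.35 (SE; limma adjusted p = 0.011) in M1 and 1.05 ± 0.35 (limma adjusted p = 0.041) in M2a. The M2a call was lost without M0 array 1 (limma adjusted p = 0.077), without M0 array 2, and without any single M1 or M2a array (0.05 to 0.11 over these). With arrays 4 and 5 as the only M0 arrays both calls were lost (limma adjusted p = 0.079 and 0.17), without M0 arrays 1 and 4 the differences were 0.80 and 0.52, and with the hybridisation covariate they were -0.72, not called, and -0.78, called lower (limma adjusted p = 0.040). With the actin control covariate the M1 value was 0.17. Probe sets of Cd36 disagreed in size: a dimmer one, the most variable of the gene, stood at 7.82, 8.80 and 10.47 on average in M0, M1 and M2a, a difference of 2.65 in M2a.

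The Cd36 window is shown because the gene rose in both states and its window held 3 of the 4 patterns, 2 of them before the start. Capitals mark the half-site and the pair of half-sites, both read on the opposite strand (minus strand of GRCm38.p6, written 5′ to 3′ along the gene).
Cd36, chr5:17835897-17836146: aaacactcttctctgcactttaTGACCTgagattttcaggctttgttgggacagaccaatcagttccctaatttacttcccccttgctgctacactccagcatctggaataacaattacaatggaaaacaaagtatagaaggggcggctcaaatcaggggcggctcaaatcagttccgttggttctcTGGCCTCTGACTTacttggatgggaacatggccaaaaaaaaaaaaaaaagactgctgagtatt
The half-site lay at -228 to -223 from the start and the pair at -63 to -51.

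The transport proteins Slc27a4 and Slc27a1, which take up long-chain fatty acids and join them to coenzyme A, differed in direction. Slc27a4 stood at 8.09, 7.92, 7.87, 8.45 and 7.48 in M0, at 6.23, 6.16 and 6.29 in M1 and at 7.49, 7.29 and 7.48 in M2a. The M1 arrays lay far below the rest, while M2a overlapped the lowest M0 array. The fall in M1 was -1.73 ± 0.17 (SE; 3.33-fold, limma adjusted p = 1.1e-05; -0.89 with the hybridisation covariate, still called). In M2a it was -0.54 ± 0.17 (limma adjusted p = 0.033), a call lost without M0 array 1 or 2 or any single M2a array (0.05 to 0.13), with only the arrays of the 2 groups (0.072), after quantile normalisation (0.076) and with arrays 4 and 5 as the only M0 arrays (0.18). Without M0 arrays 1 and 4 the value was -0.33 and with the hybridisation covariate 0.22. Slc27a1 rose from 6.98 ± 0.31 (SD, n = 5) to 7.50 ± 0.01 (n = 3) in M1 (limma adjusted p = 0.020) and to 7.82 ± 0.12 (n = 3) in M2a (limma adjusted p = 0.0017). Its M1 call was lost without any single M1 array (limma adjusted p = 0.058 to 0.063), after quantile normalisation (0.061), with the mean (0.069) or the most variable (0.23) of its probe sets and with the hybridisation covariate (0.64), which also ended the M2a call (0.13).

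Fabp4 and Fabp5 encode cytosolic proteins that bind and shuttle fatty acids, and both were bright in all groups. Fabp4 lay at 11.03, 11.88, 12.18, 11.49 and 11.90 in M0, at 10.59, 10.70 and 10.57 in M1 and at 11.35, 11.28 and 11.20 in M2a. M1 was below every other array and M2a lay within the M0 range. The fall in M1 was -1.08 ± 0.21 (SE; limma adjusted p = 0.0015), and the M2a difference of -0.42 ± 0.21 was not called (limma adjusted p = 0.15). In M2a it was called without M0 array 1 (-0.59, limma adjusted p = 0.0089) and without M0 arrays 1 and 4 (-0.71, limma adjusted p = 0.00016). Probe sets of Fabp4 were not all of one sign in M1: with their mean it was -0.42, not called, and in the most variable one, a dim probe set at 5.84 in M0, the difference was 0.52. The remaining probe sets, at 10.39 and 6.9 in M0, differed by -0.95 and -0.19 in M1. Fabp5 fell from 13.51 ± 0.26 (SD, n = 5) to 13.09 ± 0.02 (n = 3) in M2a, with M2a array 3 above M0 array 1 (limma adjusted p = 0.036). That call was lost without M0 array 2 or 3, M1 array 2 or 3, or any single M2a array (limma adjusted p = 0.052 to 0.11), with only the arrays of the 2 groups (0.074) and with M0 arrays 1 to 3 alone (0.066). Lipa, the lysosomal acid lipase, fell from 12 ± 0.32 (SD, n = 5) to 11.57 ± 0.05 (n = 3) in M1, where M0 array 1 lay below all M1 arrays (limma adjusted p = 0.047). It failed in 14 of 26 alternatives, which include leaving out M0 array 2, 3 or 5 or any single M1 or M2a array (limma adjusted p = 0.063 to 0.13), and was -0.65 without M0 arrays 1 and 4.

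Of the lipid droplet genes, only Mgll was called, and it fell in M1 and rose in M2a. Mgll encodes monoacylglycerol lipase, which frees the last fatty acid of a stored triglyceride. Its levels were 7.68, 8.48, 8.83, 8.54 and 8.12 in M0, 6.81, 6.79 and 6.53 in M1 and 10.17, 9.92 and 10.11 in M2a. The 3 groups were clear of each other on both sides of M0. The differences were -1.62 ± 0.21 (SE; 3.08-fold, limma adjusted p = 1e-04) and 1.74 ± 0.21 (3.33-fold, limma adjusted p = 9e-05), and both calls held in all 26 alternatives. Probe sets of the gene were not all of one sign in M1, and with their mean the M1 value was -0.87, still called. Plin2, the droplet coat protein perilipin 2, was the brightest of the group at 12.53 to 13.08 in M0, 12.94 to 12.99 in M1 and 13 to 13.31 in M2a. Pnpla2, the lipase that takes the first fatty acid, lay at 8.28 to 8.78 in M0, 8.56 to 8.65 in M1 and 8.58 to 8.83 in M2a. Neither passed the test in any comparison, and their M1 and M2a ranges overlapped that of M0.

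The long-chain acyl-CoA synthetases, which activate fatty acids by joining them to coenzyme A, each had a pattern of their own. Acsl3, tied to the making of lipid droplets, lay at 5.44, 6.22, 6.25, 5.66 and 6.28 in M0, at 4.99, 5.02 and 5.04 in M1 and at 6.97, 7.02 and 7.22 in M2a. M1 was below and M2a above all M0 arrays. The fall in M1 was -0.95 ± 0.19 (SE; limma adjusted p = 0.0019), to a level below the median gene, and the rise in M2a was 1.10 ± 0.19 (limma adjusted p = 0.00098). The M1 fall depended on the probe set: it was 0.23 without probe sets whose names end in _x_at or _s_at, which can bind several transcripts, and -0.33 with the mean, neither of them called. The probe set behind the value of 0.23 was dim, at 3.18 in M0 and 3.41 in M1. The remaining one was dim too, at 3.18 and 2.91, a difference of -0.27. The M2a call was lost only with the hybridisation covariate (0.16). Acsl4, which prefers arachidonic acid, stood at 6.98, 7.94, 7.80, 6.44 and 8.71 in M0, at 8.95, 9.09 and 9.24 in M1 and at 9.31, 9.32 and 9.46 in M2a. Both cytokine states lay above all M0 arrays, of which array 5 came near. The rise was 1.52 ± 0.39 (SE; limma adjusted p = 0.0095) in M1 and 1.79 ± 0.39 (limma adjusted p = 0.0046) in M2a. With the hybridisation covariate these were -0.78 and -0.27, with the actin covariate the M1 value was 0.21, and without M0 arrays 1 and 4 it was 0.94, still called. With arrays 4 and 5 as the only M0 arrays the M1 call was lost (limma adjusted p = 0.074). Acsl5, which activates a wide range of long chains, rose from 9.94 ± 0.17 (SD, n = 5) to 10.49 ± 0.03 (n = 3) in M1 (limma adjusted p = 0.0014), while M2a lay at 9.82 to 9.98, inside the M0 range. Its M1 rise was 0.31 after quantile normalisation, still called, 0.29 with the actin covariate, still called, and 0.17 with the hybridisation covariate, not called.

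**Figure D3:**
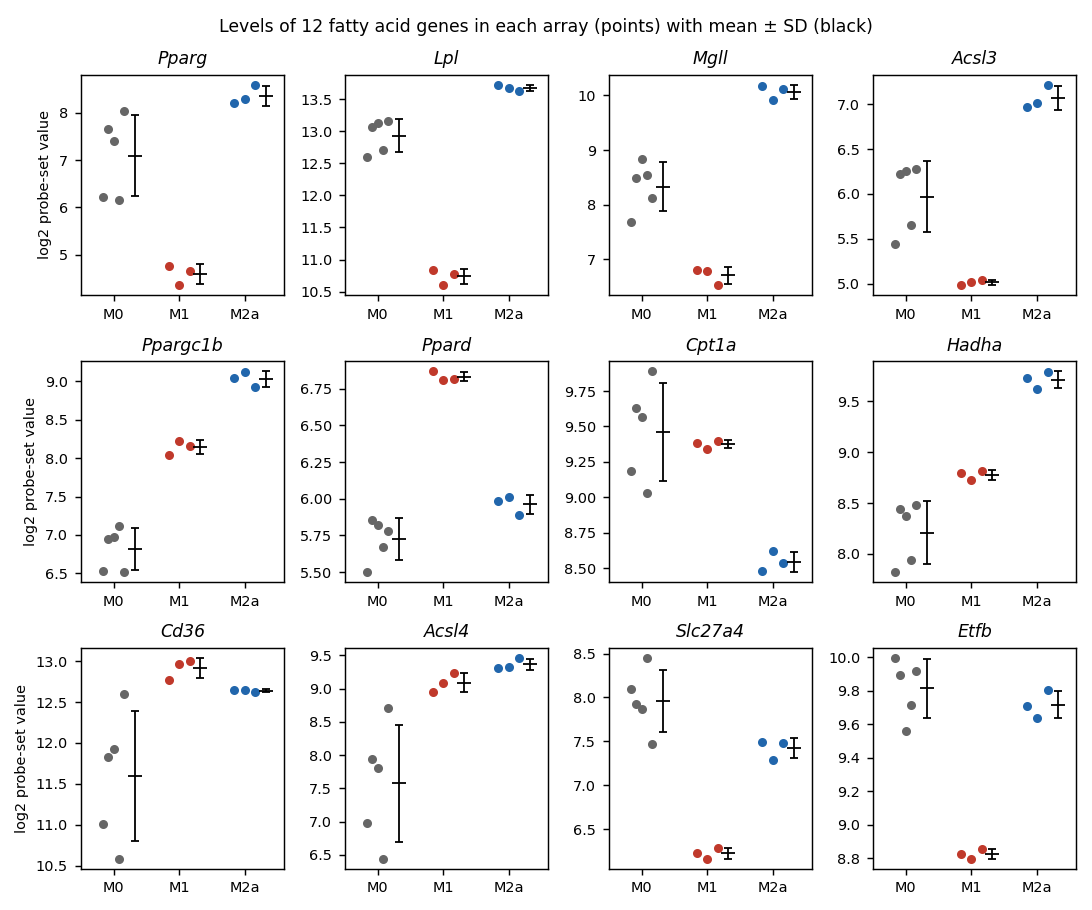
Log2 levels of 12 of the genes in each array (points, M0 grey, M1 red, M2a blue) with the group mean ± SD in black; each panel has its own vertical scale, which does not start at 0. Mgll ran from 6.53 in M1 to 10.17 in M2a, and Cpt1a was lowest in M2a.

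In the carnitine shuttle, Cpt1a was the one gene called, and it fell in M2a. Cpt1a encodes the outer-membrane carnitine palmitoyltransferase, the rate-limiting step of mitochondrial fatty acid oxidation. Its levels were 9.19, 9.63, 9.57, 9.03 and 9.89 in M0, 9.39, 9.34 and 9.40 in M1 and 8.48, 8.62 and 8.54 in M2a. All M2a arrays were below all others, while M1 lay within the M0 range. The fall in M2a was -0.92 ± 0.17 (SE; 1.89-fold, limma adjusted p = 0.0015) and held in all 26 alternatives; it was -1.75 with the hybridisation covariate. Cpt2, the inner-membrane partner, lay at 7.38 to 7.97 in M0, 7.53 to 7.76 in M1 and 7.86 to 7.96 in M2a, and Slc25a20, the carrier between them, at 8.6 to 9.22, 8.53 to 8.69 and 8.6 to 8.72. Neither was called in any comparison.

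In the mitochondrial beta-oxidation core, Hadha rose in both states, Hadh rose in M2a and Acaa2 fell in M1. Of its 8 genes, 1 rose and 1 fell in M1 and 2 rose in M2a. Over all genes 22.1% were called higher and 17.6% lower in M1, and 18.6% higher in M2a, so these counts lie near the background. Hadha encodes the alpha subunit of the trifunctional protein, which carries out the last steps of a cycle on long chains. It lay at 7.82, 8.44, 8.37, 7.94 and 8.48 in M0, at 8.80, 8.72 and 8.82 in M1 and at 9.73, 9.62 and 9.78 in M2a. The groups rose in 3 steps without overlap. The differences from M0 were 0.57 ± 0.15 (SE; limma adjusted p = 0.012) in M1 and 1.5 ± 0.15 (2.83-fold, limma adjusted p = 2.1e-05) in M2a. The M2a call held in all 26 alternatives, at 0.76 with the hybridisation covariate. The M1 value was -0.26 with that covariate, 0.24 with the actin covariate (neither called), and 0.35 without M0 arrays 1 and 4 and 0.37 after quantile normalisation, both still called.

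Hadhb, the beta subunit, is encoded head to head with Hadha on chromosome 5, with starts at 30154980 (Hadha, minus strand) and 30155253 (Hadhb, plus strand) and 272 bases between them. Hadhb lay at 9.38, 10.08, 10.10, 9.35 and 10.36 in M0, at 9.93, 9.90 and 9.91 in M1 and at 10.42, 10.48 and 10.29 in M2a. M1 lay within the M0 range, and M2a reached into it at M0 array 5. The M2a difference of 0.55 ± 0.21 (SE) was not called (limma adjusted p = 0.072). It was called without M0 array 5 (0.67, limma adjusted p = 0.015), and was -0.48 in the most variable probe set and -0.56 with the hybridisation covariate, where it was called lower (limma adjusted p = 0.013). Of the 272 bases between the starts, the 250 before the Hadhb start are shown on the Hadhb strand, since they lie before both genes. Capitals mark TTC and GAA 3 bases apart, a match within the 228 bases that the windows of both genes share.
Hadhb, chr5:30155003-30155252: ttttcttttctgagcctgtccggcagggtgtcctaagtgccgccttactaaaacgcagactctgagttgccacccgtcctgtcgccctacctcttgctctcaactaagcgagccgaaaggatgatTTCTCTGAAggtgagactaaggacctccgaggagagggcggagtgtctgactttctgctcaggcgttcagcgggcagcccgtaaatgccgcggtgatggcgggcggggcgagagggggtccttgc
The match lay at -125 to -117 from the Hadhb start.

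Acaa2, the mitochondrial thiolase that splits off acetyl-CoA, stood at 8.35, 8.72, 8.64, 8.17 and 8.97 in M0, at 7.53, 7.51 and 7.51 in M1 and at 8.61, 8.48 and 8.46 in M2a. The M1 arrays lay below all others and M2a within the M0 range. The fall in M1 was -1.05 ± 0.16 (SE; limma adjusted p = 0.00024). It was -0.66 with the mean of its probe sets and 0.54 in the most variable one, neither called. That probe set was dimmer, at 6.85 in M0, and the remaining one, at 8.59 in M0, differed by -1.46 in M1. Hadh, the hydroxyacyl-CoA dehydrogenase of shorter chains, rose from 9.56 ± 0.42 (SD, n = 5) to 10.43 ± 0.08 (n = 3) in M2a (limma adjusted p = 0.0055). It was 0.53 without _x_at and _s_at probe sets, not called, 0.57 without M0 arrays 1 and 4, still called, and -0.11 with the hybridisation covariate.

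Acadm, Acadl and Acadvl, acyl-CoA dehydrogenases that open each cycle, were not called against M0. Of other acyl-CoA dehydrogenases, outside the 35, Acadsb rose in M1 (1.0, limma adjusted p = 1.4e-05) and M2a (0.51, limma adjusted p = 0.0029), Acad11 rose in M1 (1.20, limma adjusted p = 0.00014) and Acads in M2a (0.48, limma adjusted p = 0.013). Not called were Acads in M1 (-0.23), Acad11 in M2a (0.33), Acad9 in M1 (0.13) and M2a (0.10), and Acad10 in M1 (-0.14) and M2a (0.03). Acadm, for medium chains, lay at 9.15 to 10.04 in M0, 9.16 to 9.21 in M1 and 9.92 to 10.05 in M2a. Its differences of -0.42 ± 0.16 (SE; limma adjusted p = 0.052) and 0.41 ± 0.16 (limma adjusted p = 0.065) lay close to the threshold, and were called without M0 array 4 in M1 (-0.53, limma adjusted p = 0.0049) and without M0 array 5 in M2a (0.52, limma adjusted p = 0.0059). The M2a value was -0.16 with the hybridisation covariate. Acadl, for long chains, ranged from 9.23 to 10.14 in M0, 9.79 to 9.90 in M1 and 9.92 to 10.06 in M2a, and Acadvl, for very long chains, from 8.77 to 9.33, 8.98 to 9.12 and 9.0 to 9.31. Acat1, which handles acetoacetyl-CoA, ranged from 7.49 to 8.84 in M0, 8.26 to 8.30 in M1 and 7.56 to 7.72 in M2a. Its M2a difference of -0.51 ± 0.24 (SE; limma adjusted p = 0.13) was not called, and was -0.68 and called without M0 array 4 (limma adjusted p = 0.014).

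Of the 5 auxiliary and peroxisomal enzymes, Ech1 fell in M1 and Decr1 rose in M2a, a share near that of all genes (17.6% lower in M1 and 18.6% higher in M2a). Decr1, the dienoyl-CoA reductase of polyunsaturated chains, stood at 6.85, 7.72, 7.64, 6.76 and 8.05 in M0, at 7.82, 7.66 and 7.69 in M1 and at 8.36, 8.43 and 8.46 in M2a. M2a lay above every other array and M1 within the M0 range. The rise in M2a was 1.02 ± 0.26 (SE; limma adjusted p = 0.011). With arrays 4 and 5 as the only M0 arrays the call was lost (limma adjusted p = 0.056), without M0 arrays 1 and 4 the value was 0.62, still called, in the most variable probe set 1.6, and with the hybridisation covariate -0.39, called lower (limma adjusted p = 0.028). Ech1, the dienoyl-CoA isomerase, fell from 9.42 ± 0.33 (SD, n = 5) to 8.89 ± 0.04 (n = 3) in M1 (limma adjusted p = 0.023), and its M2a arrays at 9.70 to 9.83 overlapped M0. The M1 call was lost without any single M1 array (limma adjusted p = 0.057 to 0.075), with only the arrays of the 2 groups (0.052) and with arrays 4 and 5 as the only M0 arrays (0.096). Eci1 and Eci2, which shift double bonds, and Acox3, a peroxisomal oxidase, were not called, and their levels ran from 7.31 to 7.84, from 8.08 to 8.58 and from 6.06 to 6.83 over all arrays.

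The subunits of the electron transfer flavoprotein differed from each other. Etfb, the beta subunit, fell from 9.82 ± 0.18 (SD, n = 5) to 8.83 ± 0.03 (n = 3) in M1, a difference of -0.99 ± 0.11 (SE; limma adjusted p = 2.1e-05), and every M1 array was below every M0 array, a call that held in all 26 alternatives. Its M2a arrays, at 9.64 to 9.81, lay within M0. Etfa, the alpha subunit, lay at 8.70, 9.38, 9.34, 8.12 and 10.16 in M0, at 9.99, 9.97 and 9.97 in M1 and at 10.04, 10.03 and 10.02 in M2a. Only M0 array 5 exceeded the other groups. Its differences of 0.83 ± 0.34 (SE; limma adjusted p = 0.073) and 0.89 ± 0.34 (limma adjusted p = 0.067) were not called; without M0 array 5 they were 1.09 (limma adjusted p = 0.0041) and 1.15 (limma adjusted p = 0.0040), called, and with the hybridisation covariate -1.12 and -0.86, both called lower (limma adjusted p = 0.014 and 0.029). With the actin covariate the M1 value was -0.34. Etfdh, which passes the electrons on to ubiquinone, spread from 7.31 to 9.24 in M0 and lay at 8.38 to 8.41 in M1 and 8.37 to 8.51 in M2a, with no call.

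Set against each other, the cytokine states differed in 15 of the 35 genes, with 12 lower and 3 higher in M1 than in M2a. This comparison uses no M0 level, although the M0 spread enters its error. Over all genes, 13.7% were called higher and 15.6% lower in M1, against 8.57% and 34.3% of the 35. Here too the shares over all genes include dim genes, of which the 35 hold few. Called changes of at least 2-fold were 0 higher and 5 lower, beside 5.51% and 5.47% of all genes. The median difference was -0.29 over the 35 and -0.02 over all genes. The 66 other measured genes of the pathway, described further on, were more evenly divided, with 11 higher (16.7%) and 14 lower (21.2%) in M1, 7 and 9 of them by at least 2-fold, and a median of -0.06. Of their 14 mitochondrial oxidation genes 5 were higher and 2 lower in M1, among the higher ones the enoyl-CoA hydratase Echs1 (1.24, limma adjusted p = 0.0012). The 5 genes lower by at least 2-fold in these counts were Pparg, Mgll, Lpl, Acsl3 and Slc27a4. Acaa2, at -1.0 ± 0.17 (SE; limma adjusted p = 0.0010), lay just short of that size.

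Pparg differed by -3.76 ± 0.43 (SE; 13.6-fold, limma adjusted p = 4.3e-05), Mgll by -3.36 ± 0.24 (10.2-fold, limma adjusted p = 6.8e-07), and Lpl by -2.94 ± 0.15 (7.69-fold, limma adjusted p = 4.9e-08). In each, all M1 arrays lay below all M2a arrays. Acsl3 was lower by 4.14-fold (limma adjusted p = 1.6e-05; -0.67 without _x_at and _s_at probe sets) and Slc27a4 by 2.29-fold (limma adjusted p = 0.00061; -0.68 with the actin covariate). Mgll was -2.19 with the mean of its probe sets. Among oxidation genes, Hadh (-0.97), Hadha (-0.93), Ech1 (-0.89), Etfb (-0.89) and Acadm (-0.83) were lower in M1, with limma adjusted p of 0.0058 to 0.00014, and so was the coactivator Ppargc1b (-0.89). Higher in M1 were Ppard (0.87), Cpt1a (0.83) and Acsl5 (0.58), with limma adjusted p of 7.5e-05, 0.0056 and 0.0028. Among the carnitine shuttle and beta-oxidation enzymes of the 35 that were called here, Cpt1a was the only one higher in M1.

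Differences of similar size that were not called were Decr1 (-0.69, limma adjusted p = 0.094), Fabp4 (-0.66, limma adjusted p = 0.051), Acat1 (0.63, limma adjusted p = 0.099) and Hadhb (-0.48, limma adjusted p = 0.16). With only the M1 and M2a arrays in the fit, all 4 were called, and the counts were 6 higher and 19 lower. Leaving out M0 array 4 or 5 called Decr1 (limma adjusted p = 0.039 in both) and Acat1 (0.027 in both), and leaving out M0 array 1, 3, 4 or 5 called Fabp4 (0.0063 to 0.044). The Hadh call was lost without _x_at and _s_at probe sets (-0.51), that of Acaa2 with the mean of its probe sets (-0.65) and that of Cpt1a with the actin covariate (0.37). The value of Acaa2 was 0.36 and that of Fabp4 0.25 in the most variable probe set. Ppard was 0.36 with the mean of its probe sets, Acadm -1.31, Acsl5 0.33 and Ppargc1b -0.56 with the actin covariate, all still called, and Acat1 was -0.11 with that covariate. M2a array 3, the one with both Xist and Y-linked signal, decided no call here: without it the counts were again 3 higher and 12 lower.

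**Figure D4:**
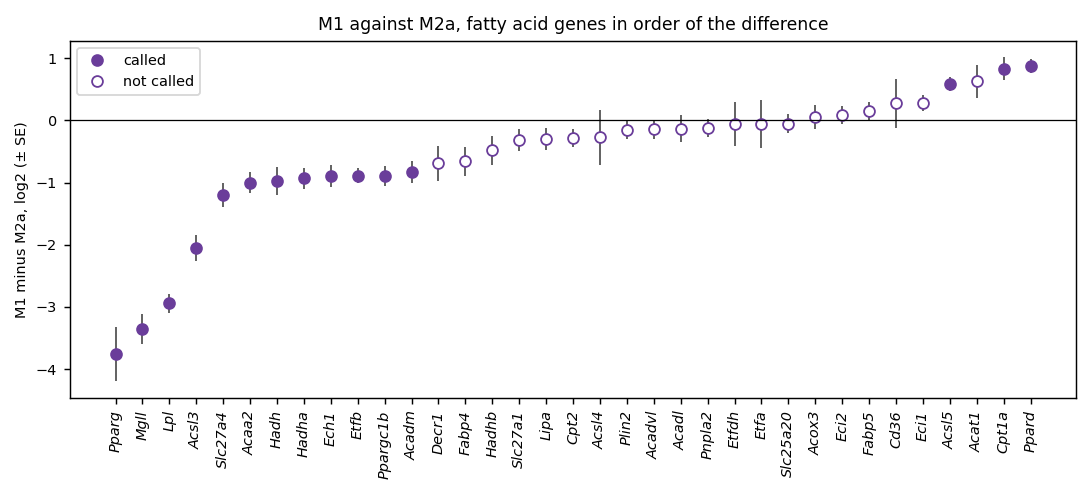
Difference between M1 and M2a for each of the 35 genes in order of size (log2, ± SE of the limma fit); filled points were called. The order runs from Pparg at -3.76 to Ppard at 0.87, with Cpt1a next to Ppard.

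Over the 3 comparisons, 22 of the 35 genes were called at least once. The share of all genes called at least once was not counted, so this number is not a result particular to the 35. In M1 against M0 alone, 22.1% of all genes were called higher and 17.6% lower. Lpl, Mgll, Acsl3 and Pparg were lower in M1 and higher in M2a than in M0. Cd36, Slc27a1, Acsl4, Hadha and Ppargc1b were higher in both, and Slc27a4 was lower in both. The 13 genes called in none were Plin2, Pnpla2, Cpt2, Slc25a20, Acadl, Acadvl, Hadhb, Acat1, Eci1, Eci2, Acox3, Etfa and Etfdh, with differences of -0.51 to 0.89. Of the 46 called differences, 23 kept their call and direction in all 26 alternatives and 7 lost it only with a control-probe covariate. Some alternatives could not move the size of a difference: those on probe sets for genes with 1 probe set, and the M0 splits with equal means. Nor could the fit on the arrays of the 2 groups, other eBayes settings, the limit to genes above the median gene, or the replicate block. The same holds for leaving out an array of a group not compared, so for M1 against M2a no choice of M0 arrays could move it. Keeping a call in all 26 alternatives is therefore less than 26 separate checks. For the called genes with several probe sets, all of them had the same sign in 6 of 10 in M1 against M0 (not in Fabp4, Mgll, Acsl3 and Acaa2), in 10 of 10 in M2a against M0, and in 5 of 7 in M1 against M2a (not in Acaa2 and Ppard). Dim probe sets entered these counts as well.

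Other genes of the pathway were taken from a list of 73, of which 66 were measured. In M1, 19 rose and 18 fell, 28.8% and 27.3% of them, and in M2a 18 rose and 11 fell, 27.3% and 16.7%. Over all genes these shares were 22.1% and 17.6% in M1 and 18.6% and 13.3% in M2a, so that several of the counts below lie near the background. Their median difference was 0.07 in M1 and 0.19 in M2a. Of 15 storage and lipolysis genes of the droplet, 4 rose and 6 fell in M1, and 6 rose and 4 fell in M2a. Of 14 further mitochondrial oxidation genes, 6 rose and 1 fell in M1, and 4 rose and 2 fell in M2a. Of 14 peroxisomal genes, 5 rose and 4 fell in M1, and 4 rose and 2 fell in M2a. Of 10 uptake genes, 1 rose and 3 fell in M1, and 1 rose and 1 fell in M2a; of 5 activation genes, 1 rose and 1 fell in M1, and 2 rose and 1 fell in M2a; and of 8 regulators, 2 rose and 3 fell in M1, and 1 rose and 1 fell in M2a.

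In M1, the droplet genes Hilpda and G0s2 moved far apart. Hilpda, a droplet protein that inhibits the lipase made from Pnpla2, rose by 2.90 ± 0.32 (SE; 7.45-fold, limma adjusted p = 2.6e-05), from 6.94, 7.83, 8.22, 7.06 and 8.26 in M0 to 10.58, 10.58 and 10.52 in M1. G0s2, another inhibitor of that lipase, fell by 4.61 ± 0.23 (SE; limma adjusted p = 3.6e-08), from 8.46, 7.41, 7.70, 7.74 and 7.98 to 3.57, 3.31 and 2.87. The inhibitors moved in opposite directions with no overlap between groups. The M1 level of G0s2 lay below the median gene, 5.94, and near that of Eif2s3y in the M0 arrays, 2.36 to 3.02, so no fold is given; Fabp7 and Lpin1 in M1 were also below the median gene. Abhd6, a monoacylglycerol hydrolase, rose by 1.51 and Phyh, which starts the breakdown of phytanic acid, by 1.33, while Fabp7, a fatty acid-binding protein, fell by 4.27 and the phosphatidate phosphatase Lpin1 by 2.12, with limma adjusted p of 9.4e-05 or less. With the mean of its probe sets Abhd6 rose by 0.78. With the hybridisation covariate Hilpda rose by 1.23, and the Phyh call was lost (0.35).

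In M2a, Ffar4, a receptor for long-chain fatty acids, rose by 1.98 ± 0.11 (SE; limma adjusted p = 1.8e-07), from 3.30 to 3.72 in M0 to 5.33 to 5.59 in M2a, below the median gene in both. Hilpda rose by 1.40 ± 0.32 (limma adjusted p = 0.0061), and Abcd2, a peroxisomal importer of very long chains, by 1.07 ± 0.30 (limma adjusted p = 0.016). The Abcd2 call was lost without M2a array 1 (limma adjusted p = 0.063) or 2 (0.055), with arrays 4 and 5 as the only M0 arrays (0.13) and with the hybridisation covariate (0.80); its rise was 0.67 in the most variable probe set, still called. Hilpda was -0.10 with the hybridisation covariate. Angptl4, a secreted inhibitor of lipoprotein lipase, fell by 2.14 ± 0.27 (SE; limma adjusted p = 0.00012). It was -1.39 with the mean of its probe sets, -0.64 without _x_at and _s_at probe sets and -3.31 with the hybridisation covariate. Pdk4, the kinase that turns off pyruvate dehydrogenase, fell by 1.73 (limma adjusted p = 0.00026) at levels below the median gene, and Lpin2, a phosphatidate phosphatase, by 1.14 (limma adjusted p = 2.9e-05).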

How the data were processed

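Total RNA of 11 samples was hybridised to Affymetrix Mouse Genome arrays. The deposited table holds log2 values of 45101 probe sets per array, from 0.73 to 14.49, with array medians of 5.14 to 5.34. Partek is named in the submitters' processing notes; for background correction, probe summary and normalisation the method is not given in the sources used here. Of the probe sets, 34945 had 1 gene symbol. Differences were tested on the log2 values by lmFit and eBayes of limma 3.58.1 (R 4.3.3). One model of the group means took all 11 arrays, p-values were adjusted over 18193 genes by Benjamini-Hochberg, and there was no filter on low values. The number of arrays limits the precision. The genes, lists and tests were chosen with earlier results of these data known. Genes called at a log2 difference of at least 1 from M0 were to be given in every array (Cpt1a, Hadhb and Etfa, and outside the 35 Echs1, Acadsb, Acad9, Acad10, Acad11 and Acads, were added after their values were seen), and of the other pathway genes the 3 largest rises and falls without overlap between groups. The labels do not say whether replicate numbers pair samples, and the main fit did not pair them. Deviations of same-numbered arrays correlated at 0.04 to 0.25 between M0 and M1, -0.04 to 0.01 between M0 and M2a and 0.01 to 0.04 between M1 and M2a. Differently numbered M0 and M1 arrays correlated at -0.34 to 0.34. With so few arrays per group these values cannot decide whether samples were paired. The fit was also run on simulated data, with independent noise of 1 spread per gene in all groups. At a log2 difference of 1 it recovered 88% of changed genes in M1 and 86% in M2a. The simulation lacks the wider M0 spread and the tie among the M0 arrays, so it cannot speak to their effect on the p-values. Promoter windows are from RefSeq (GRCm38.p6).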

Additional observations from a re-analysis of the deposited data

How the results depend on the processing

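In M1 against M0, the 7 genes called higher were 4 with the actin covariate, 3 with the hybridisation covariate and 4 at 2-fold or more, and the 10 called lower were 16 with array weights, 17 without M0 arrays 1 and 4, 25 with the hybridisation covariate and 6 at 2-fold or more. In M2a against M0, the 11 called higher were 4 with the hybridisation covariate; the 3 called lower were 5 after quantile normalisation, 1 with only the 2 groups, 8 with array weights, 9 without M0 arrays 1 and 4, 17 with the hybridisation covariate, 0 at 2-fold or more and 1 to 4 with an array left out. In M1 against M2a, the 3 called higher were 6 with only the 2 groups, 7 with array weights, 5 with M0 arrays 1 to 3 only, 5 without M0 arrays 1 and 4 and 0 at 2-fold or more; the 12 called lower were 19 with only the 2 groups, 20 with array weights, 20 with the actin covariate, 19 with the hybridisation covariate and 5 at 2-fold or more. With an array left out these 6 counts, in the same order, were 6 to 8, 8 to 12, 9 to 15, 1 to 4, 3 to 4 and 12 to 14.

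Signs that turned with the hybridisation covariate were, in M1 against M0, Cd36 -0.72, Acsl4 -0.78, Hadha -0.26 and Etfa -1.12, and in M2a against M0, Cd36 -0.78, Slc27a4 0.22, Acsl4 -0.27, Acadm -0.16, Hadhb -0.56, Hadh -0.11, Decr1 -0.39, Etfa -0.86, Pparg -0.89 and Hilpda -0.10. Of these, Etfa in both, and Cd36, Hadhb, Decr1 and Pparg in M2a, were called in the turned direction. With the actin covariate Etfa was -0.34 in M1 against M0 and Acat1 -0.11 in M1 against M2a. With the most variable probe set Fabp4 was 0.52 in M1 and 0.27 in M2a against M0 and 0.25 between them, Acaa2 was 0.54 in M1 against M0 and 0.36 against M2a, and Hadhb was -0.48 in M2a. With the mean of its probe sets Fabp4 was 0.012 in M2a, and without _x_at and _s_at probe sets Acsl3 was 0.23 in M1, on a dim probe set. The causes were not tested.

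Whether a shared replicate number marks a pair is not given in the labels. With the replicate number as a block, 8 genes rose and 10 fell in M1, 14 rose and 4 fell in M2a, and 4 were higher and 14 lower in M1 against M2a; of the called genes, Lipa in M1 was lost (limma adjusted p = 0.082). Over all genes, counts that moved by more than 1.5 times were, in M1 against M0, 2496 higher with M0 arrays 4 and 5 only (main count 4022) and 1867 lower with genes above the median gene only (3195), in M2a against M0, 2084 higher with M0 arrays 4 and 5 only (3380) and 4381 lower with the hybridisation covariate (2424), and in M1 against M2a, 4914 higher and 5443 lower with only the 2 groups, 5321 and 6021 with array weights, 4104 and 4549 without M0 arrays 1 and 4, and 4000 and 4442 with the hybridisation covariate (2500 and 2841), with 1887 lower among genes above the median gene.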
